A study of Rattus norvegicus with 18 samples.

Results

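ATP6 and Atp5f1b encode subunits of the same enzyme, the mitochondrial ATP synthase, from different genomes. They were followed by name through rat kidney libraries, as 2 of the 29 features in the analysed table, which holds 12 mitochondrial genes, 16 nuclear genes and 1 unnamed feature. Both were measured in all 18 libraries. The kidneys came from male rats aged 23 weeks, with 3 libraries in each of 6 groups. The diabetic groups were given water (DM) or flour of plantain, a cooking banana. LP stands for 1 g of flour per kg of body weight, MP for 2 and HP for 4 g per kg. The healthy groups received a high flour dose whose amount in g per kg their label does not give (NH) or water (NC). The labels do not say how diabetes was induced, for how long flour was given, or whether the replicates of a group were separate animals, so a p-value here reflects only the variation among these libraries, which may be technical. The series asks how the flour bears on the transcripts of the diabetic kidney.

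ATP synthase sits in the inner mitochondrial membrane and makes ATP as protons flow back through it. Its membrane sector, F0, holds subunit a, which forms part of the proton path and is the product of ATP6 on the mitochondrial DNA. Its soluble sector, F1, carries the catalytic sites on the beta subunit, the product of Atp5f1b, which is transcribed in the nucleus and imported as protein. Mitochondrial messenger RNAs are cut from long transcripts that cover many genes, so their levels share a common source, whereas nuclear subunit genes are each transcribed from their own promoter. Kidney tubule cells reabsorb salt and nutrients at a high cost in ATP and are rich in mitochondria.

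ATP6 (ENSRNOG00000031979) was annotated on the plus strand of the mitochondrial genome, MT:7919-8599, over 681 bases, and its last base was also the first base of COX3. Atp5f1b (ENSRNOG00000002840) was annotated on the plus strand at chr7:2504695-2511749 with a transcript length of 1773 bases. These positions are the deposited ones, and their rat genome build is not given in the sources used here. The library kit does not mark strand, and how reads shared with nuclear copies of mitochondrial DNA or with pseudogenes were assigned is not given, so both genes' counts carry that uncertainty.

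ATP6 was counted less often in every diabetic library than in every healthy one. Counts of CYTB, COX2, COX3 and ND3 separated in the same way, while those of ND1, ND2, ND5 and ND6 overlapped. The share of all 29 features separated like this was not counted. Its deposited counts were 581534, 507321 and 541489 for the DM libraries, 444430, 558993 and 506763 for LP, 739907, 624895 and 615395 for MP, and 1029607, 703340 and 652711 for HP. In the healthy groups they were 1238239, 1067844 and 1334188 in NH, and 1162887, 1149121 and 1173229 in NC. The highest diabetic library, HP replicate 1, stood apart from its own group and came close to the lowest healthy library, NH replicate 2.

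Group means of the ATP6 count were, from water to the high dose, 543448 ± 37150 for DM, 503395 ± 57360 for LP, 660066 ± 69310 for MP and 795219 ± 204600 for HP (SD, n = 3 each). They were 1213424 ± 134900 in NH and 1161746 ± 12090 in NC (SD, n = 3 each). MP and HP lay above DM without overlap, LP and DM overlapped, and NH and NC overlapped. Per kilobase of length, ATP6 had the highest or the second highest mean count of the 12 mitochondrial genes in every group.

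Atp5f1b went the other way in the raw counts. It was counted 41675, 41801 and 37595 times for DM, 40956, 41987 and 44802 for LP, 39609, 47545 and 36416 for MP, and 35352, 37557 and 40632 for HP. The healthy libraries had 18335, 26078 and 24680 in NH, and 27183, 27082 and 31710 in NC. Every diabetic library was above every healthy one, the diabetic groups overlapped with one another except that LP lay above HP, and each NH library was below each NC library. Of the other nuclear genes named below, Eef1a1, Cyp4a2 and Atp1b1 also had every diabetic count above every healthy one, and Slc34a1 did not. The share over all 29 features was not counted.

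The Atp5f1b group means were 40357 ± 2393 for DM, 42582 ± 1991 for LP, 41190 ± 5730 for MP and 37847 ± 2652 for HP, with 23031 ± 4126 in NH and 28658 ± 2643 in NC (SD, n = 3 each). Per kilobase, Atp5f1b ranked between the sixth and the ninth of the 16 nuclear genes in every group. The sums over all listed features were also smaller in diabetic libraries, 4440262 to 4976154 in DM and 5483969 to 7552061 in HP, against 8576253 to 10306858 in NH and 8650150 to 9219671 in NC. Those sums cover the listed features and are not library depths, which are unknown.

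**Figure D1:**
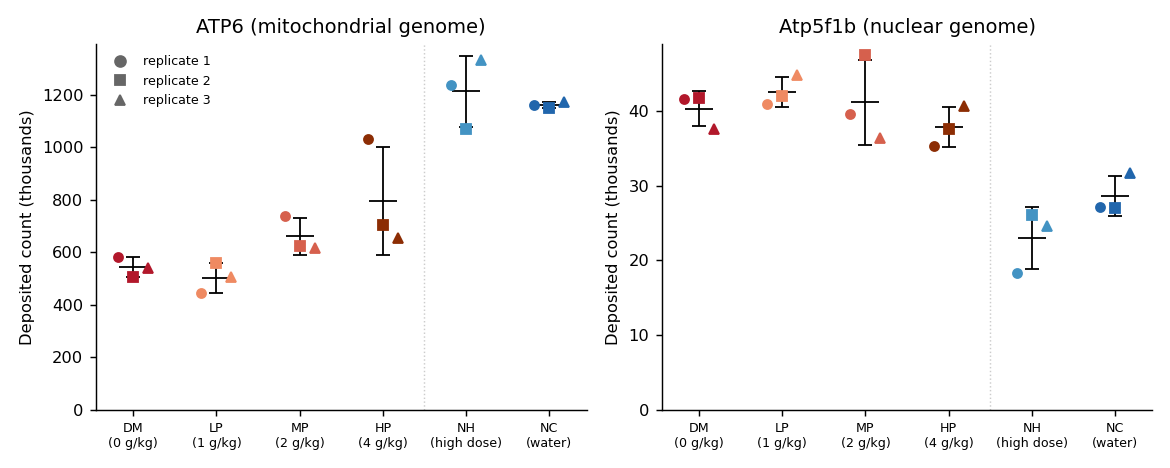
Deposited counts of ATP6 (left) and Atp5f1b (right) for each of the 18 libraries, with the marker shape giving the replicate number and the bars the mean ± SD of 3 libraries. The 12 diabetic libraries (DM, LP, MP, HP) lie below the 6 healthy ones (NH, NC) for ATP6 and above them for Atp5f1b.

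The ratio of the ATP6 count to the Atp5f1b count within a library is free of any scaling between libraries. It was 13.95, 12.14 and 14.4 for DM, 10.85, 13.31 and 11.31 for LP, 18.68, 13.14 and 16.9 for MP, and 29.12, 18.73 and 16.06 for HP. It was 67.53, 40.95 and 54.06 in NH, and 42.78, 42.43 and 37.0 in NC. The 12 diabetic libraries thus lay between 10.85 and 29.12, and the 6 healthy ones between 37.0 and 67.53.

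In order of their means the groups ran from NH (54.18 ± 13.29) through NC (40.74 ± 3.242), HP (21.31 ± 6.901), MP (16.24 ± 2.827) and DM (13.5 ± 1.2) to LP (11.83 ± 1.309; SD, n = 3 each). Neighbours in this order overlapped, except HP with NC, which were separated. HP also lay wholly above DM, its second neighbour. Divided by each gene's length, the ratio was 55.47 ± 17.97 in HP, 35.14 ± 3.125 in DM, 141.1 ± 34.61 in NH and 106.1 ± 8.44 in NC (SD, n = 3 each), so ATP6 was the more abundant per kilobase in all 4 of these groups.

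**Figure D2:**
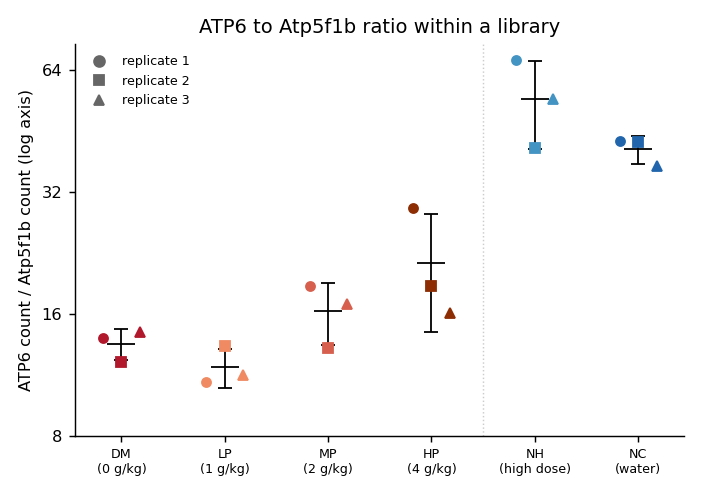
ATP6 count divided by Atp5f1b count in each library, on a log axis, with the mean ± SD of 3 libraries per group and the marker shape giving the replicate number. Every healthy library is above every diabetic one, and HP replicate 1, at 29.12, is the highest of the diabetic libraries.

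The disease comparison gave the largest differences in the ratio. In DM the log2 ratio was lower than in NC by a mean difference of -1.59 (SE 0.10), which is a 3.02-fold lower ratio. At the high dose, HP was lower than NH by -1.36 (SE 0.33), or 2.57-fold. Each of these contrasts reached the smallest p that 3 libraries against 3 allow in a two-sided exact permutation test, p = 0.1, which is 0.167 after Benjamini-Hochberg adjustment over the 10 ratio tests. For a joint test HP and NH were treated as the same feed, although the NH dose in g per kg is not given. When the disease labels were permuted within feed over both contrasts together, the mean difference was -1.48 (SE 0.17), lower in all 6 diabetic libraries. That two-sided exact permutation test gave p = 0.005, the smallest of its 400 labellings, and an adjusted p of 0.0351.

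Flour dose within the diabetic groups was the second question. The log2 ratio in LP differed from DM by -0.19 (SE 0.12; exact permutation p = 0.2), in MP by 0.26 (SE 0.17; exact permutation p = 0.3) and in HP by 0.61 (SE 0.27; exact permutation p = 0.1), and all 3 contrasts share the DM libraries. After adjustment over the 10 tests, the exact permutation p-values were 0.286 for LP, 0.333 for MP and 0.167 for HP. HP was thus 1.53-fold above DM on average, and 0.37 on the log2 scale without HP replicate 1. The MP value ran between 0.15 without MP replicate 1 and 0.40 without MP replicate 2.

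Over the doses 0, 1, 2 and 4 g per kg, the log2 ratio rose by 0.18 per g per kg (SE 0.057). This slope passed the test, with an exact permutation p of 0.00702 over 369600 labellings of the 12 diabetic libraries and an adjusted p of 0.0351. Without HP replicate 1 it was 0.12 per g per kg, with an exact permutation p of 0.04. The order of the group means was not monotonic, since LP was the lowest.

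In healthy kidneys the high dose left the groups overlapping. NH was above NC by 0.38 on the log2 scale (SE 0.22), or 1.31-fold, with an exact permutation p of 0.3 and an adjusted p of 0.333. Without NH replicate 1, whose Atp5f1b count was the lowest of all libraries, the difference was 0.21. Taking both disease states together, the high dose was above water by 0.50 (SE 0.17; exact permutation p = 0.015), with an adjusted p of 0.05 that does not fall below the threshold of 0.05. The HP against DM difference minus that of NH against NC was 0.23 (SE 0.35; exact permutation p = 0.63), so the effects were not shown to differ. Both of these results treat HP and NH as the same high dose, although their doses in g per kg may differ.

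Whether the ratio moved through ATP6, Atp5f1b or both depends on how libraries are made comparable. Counts were tested with edgeR's quasi-likelihood test under 4 scalings, and p-values were Benjamini-Hochberg adjusted over the 29 features. TMM, a trimmed mean of the log ratios between libraries, was the main one, and was set beside nuclear scaling (library size taken as the geometric mean over the 16 nuclear genes), median-of-ratios factors, and counts left unscaled. A call was an adjusted p under 0.05. Neither ATP6 nor Atp5f1b was called in the same direction under all 4 scalings in any comparison. For DM against NC that stricter rule held for 24.1% of the 29 features, for HP against NH for 41.4%, for LP, MP and HP against DM for 17.2%, 13.8% and 17.2%, and for NH against NC for 31%.

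In DM against NC, ATP6 had a log2 fold change of -0.17 under TMM (SE 0.076, edgeR adjusted p = 0.0677). It was called lower under median-of-ratios (-0.58), under nuclear scaling (-1.54) and unscaled (-1.10), where 48.3%, 65.5% and 55.2% of all features were called lower. The median over all 29 features was 0.10 under TMM and -0.31, -1.28 and -0.83 under the other scalings. A change of scaling shifts all features by nearly the same amount, so the similar gap of ATP6 below that median was given by construction. The TMM value was itself unsteady, between -0.57 without DM replicate 1 and -0.17 without DM replicate 2, and it was called lower without DM replicate 1, DM replicate 3, NC replicate 1 or NC replicate 2. A fit of DM and NC alone also called it lower, at -0.42.

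Atp5f1b in DM against NC was called higher under TMM (log2 fold change 1.43, SE 0.19, edgeR adjusted p = 4.03e-06), with median-of-ratios factors (1.02) and with unscaled counts (0.49). The shares of all features called higher there were 48.3%, 44.8% and 34.5%. With nuclear scaling its value was 0.05 (SE 0.067, edgeR adjusted p = 0.436). A gene that follows the other nuclear genes has no difference under nuclear scaling by construction, and the 15 others had medians of 1.41, 1.00, 0.48 and 0.04 in the same order of scalings.

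The same pattern was seen at the high dose. In HP against NH, ATP6 was at -0.14 under TMM (SE 0.076, edgeR adjusted p = 0.111) and was called lower at -0.72, -1.51 and -0.61 under median-of-ratios, nuclear and unscaled settings, against 41.4%, 72.4% and 41.4% of features called lower. Under TMM it was called lower without HP replicate 1 (-0.18) or NH replicate 1 (-0.37). Atp5f1b was called higher at 1.24 under TMM (SE 0.19, edgeR adjusted p = 1.66e-05), 0.66 with median-of-ratios factors and 0.72 unscaled, against 55.2%, 41.4% and 37.9% called higher. With nuclear scaling its direction turned and it was called lower, at -0.16 (SE 0.067, edgeR adjusted p = 0.0366).

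**Figure D3:**
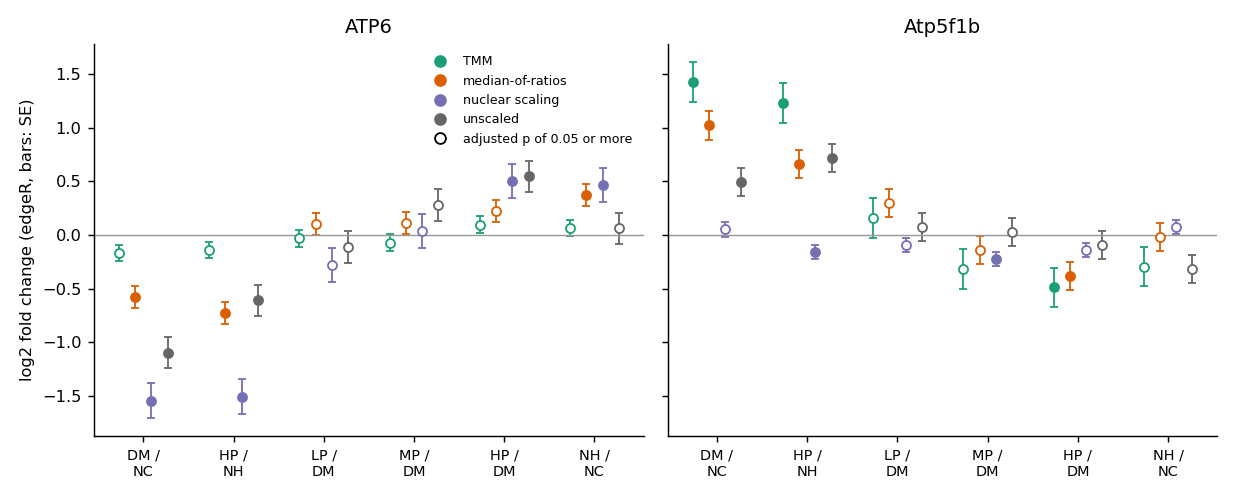
Log2 fold changes (edgeR, bars are SE) of ATP6 (left) and Atp5f1b (right) in 6 comparisons, the group before the slash over the group after it, under 4 scalings in different colours. Open circles have an adjusted p of 0.05 or more. In DM against NC the ATP6 values run between -1.54 and -0.17 and the Atp5f1b values between 0.05 and 1.43.

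The flour contrasts of single genes were small. Under TMM, LP against DM gave -0.03 for ATP6 (SE 0.076, edgeR adjusted p = 0.825) and 0.16 for Atp5f1b (SE 0.18, edgeR adjusted p = 0.687), and neither gene was called under any of the 4 scalings, while 27.6% of features were called under TMM. MP against DM gave -0.07 for ATP6 and -0.32 for Atp5f1b, neither of them called, with 44.8% of features called under TMM. Atp5f1b was called lower in MP with nuclear scaling (-0.23, SE 0.067, edgeR adjusted p = 0.0104), as were 34.5% of features, and under TMM in a fit of MP and DM alone (-0.30).

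HP against DM was the one flour contrast in which both genes were called under some scalings. ATP6 was called higher with nuclear scaling (0.50, SE 0.16, edgeR adjusted p = 0.0161) and unscaled (0.55, SE 0.15, edgeR adjusted p = 0.00594), where 48.3% and 55.2% of features were called higher, and was at 0.10 under TMM and 0.23 with median-of-ratios factors. Atp5f1b was called lower under TMM (-0.49, SE 0.18, edgeR adjusted p = 0.0476) and with median-of-ratios factors (-0.38, edgeR adjusted p = 0.0356), where 27.6% and 20.7% of features were called lower. The TMM call was lost in a fit of HP and DM alone (-0.41) and without any one of DM replicates 1, 2 and 3 and HP replicates 1 and 2, with values between -0.51 and -0.31.

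The slopes over dose followed the same division. ATP6 rose by 0.15 per g per kg with nuclear scaling (edgeR adjusted p = 0.0252) and 0.16 unscaled (edgeR adjusted p = 0.0111), with 37.9% and 44.8% of features rising, but had 0.05 under TMM and median-of-ratios scaling. Of the 11 other mitochondrial genes, 1, 2, 9 and 9 were called higher under TMM, median-of-ratios, nuclear scaling and unscaled, and none lower. Their median slopes were 0.06, 0.06, 0.165 and 0.171 per g per kg, so ATP6 did not stand out from them. Atp5f1b fell by 0.13 per g per kg under TMM (edgeR adjusted p = 0.0316) and median-of-ratios scaling (edgeR adjusted p = 0.0231), as did 13.8% of features under each, and had -0.03 under the others. The 15 other nuclear genes had median slopes of -0.128 under TMM and -0.124 under median-of-ratios scaling, with 3 called lower under each. Without DM replicate 2, HP replicate 1 or HP replicate 2 the TMM call for Atp5f1b was lost, with -0.10 without HP replicate 1. Under all 4 scalings, 10.3% of features had a called slope.

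In NH against NC, ATP6 was called higher with median-of-ratios factors (0.37, SE 0.10, edgeR adjusted p = 0.00405) and nuclear scaling (0.47, SE 0.16, edgeR adjusted p = 0.0153), where 48.3% and 55.2% of features were called higher. It was at 0.07 under TMM and 0.06 unscaled. Atp5f1b was not called under any scaling, with -0.29 under TMM (SE 0.18, edgeR adjusted p = 0.199), where 51.7% of features were called. Without NH replicate 2 it was called lower, at -0.48 (edgeR adjusted p = 0.0449). When the NH against NC effect was subtracted from that of HP against DM, neither gene was called under any of the 4 scalings, and 3.45% of features were called, both under TMM and under all 4 scalings together. The other scalings called more of the 29 features, 1 higher and 4 lower under median-of-ratios, 5 higher and 4 lower under nuclear scaling, and 7 higher and 0 lower unscaled. In a fit restricted to the 4 groups concerned, the ATP6 difference was called at 0.49 (edgeR adjusted p = 0.0148).

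A description free of these scalings sets each gene against the other genes of its own genome in the same library. On the log2 scale, ATP6 stood above the geometric mean of the 11 other mitochondrial genes by 1.93 ± 0.037 for DM, 1.82 ± 0.096 for LP, 1.82 ± 0.074 for MP, 1.93 ± 0.054 for HP, 1.83 ± 0.023 for NH and 1.98 ± 0.037 for NC (SD, n = 3 each). DM overlapped with NC and HP with DM, while HP was above NH, MP below DM and NH below NC without overlap. How many of the 11 other mitochondrial genes separated against the rest of their genome was not counted, so these separations are not shown to be particular to ATP6. ATP6 made up between 12.92 and 15.61% of the summed mitochondrial counts of a library, with the highest share in HP replicate 1.

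Atp5f1b lay below the geometric mean of the 15 other nuclear genes, by log2 differences of -0.23 ± 0.096 for DM, -0.33 ± 0.027 for LP, -0.47 ± 0.055 for MP, -0.38 ± 0.12 for HP, -0.22 ± 0.13 for NH and -0.29 ± 0.017 for NC (SD, n = 3 each). Only MP and DM were separated, with MP lower, among the 6 contrasts, and how many other nuclear genes separated was not counted. The difference between DM and NC was 0.06 (SE 0.056) for Atp5f1b and -0.05 (SE 0.030) for ATP6, while the 11 other mitochondrial genes over the 15 other nuclear genes differed by -1.48 (SE 0.054). The other genes' difference plus that of ATP6 minus that of Atp5f1b makes up the -1.59 of the members' ratio, so most of it was shared with the other listed genes of each genome.

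For HP against NH the other genes' ratio differed by -1.63 (SE 0.22), ATP6 within its genome by 0.10 (SE 0.034) and Atp5f1b within its own by -0.17 (SE 0.10). For HP against DM the other genes gave 0.47 (SE 0.17) of the 0.61, ATP6 was at -0.0012 (SE 0.038) within its genome, and Atp5f1b differed within its genome by -0.15 (SE 0.087). The ATP6 value depended on the measure, and was 0.09 against the sum of the other mitochondrial genes instead of their geometric mean. For NH against NC the other genes gave 0.61 (SE 0.15), more than the 0.38 of the members, with ATP6 at -0.15 (SE 0.025) within its genome. These values carry no test.

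**Figure D4:**
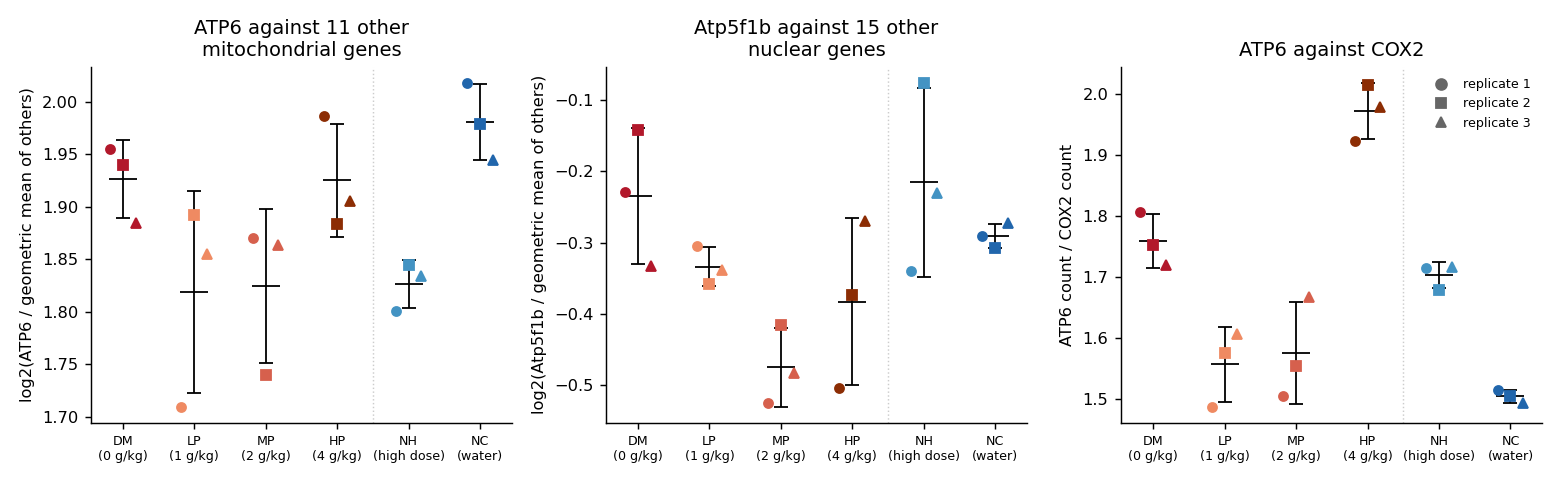
Each library's ATP6 count over the geometric mean of 11 other mitochondrial genes (left, log2), Atp5f1b over that of 15 other nuclear genes (middle, log2) and ATP6 over COX2 (right, plain ratio), with the mean ± SD of 3 libraries and marker shapes for replicates. In the right panel HP lies highest and NC lowest, at means of 1.972 and 1.505, while in the left panel DM and NC overlap.

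Among all 28 other features, those whose log2 ratio to ATP6 varied least over the 18 libraries were ND2 (SD 0.0899), ND1 (SD 0.0945) and CYTB (SD 0.108). ND1 and ND2 encode subunits of complex I of the respiratory chain, and CYTB encodes cytochrome b of complex III. Those nearest to Atp5f1b were Eef1a1 (SD 0.151), a translation elongation factor, Cyp4a2 (SD 0.164), a fatty acid hydroxylase of the proximal tubule, and Slc34a1 (SD 0.207), a sodium-phosphate cotransporter of the same cells. Both counts of each ratio come from the same library, so library depth cancels, whereas effects of preparation may not.

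COX2, a subunit of cytochrome c oxidase encoded upstream at MT:7006-7689, had the least spread against ATP6 within groups (SD 0.0445) but more over all 18 libraries (SD 0.141). The ATP6 to COX2 ratio was 1.806, 1.752 and 1.719 for DM, 1.488, 1.576 and 1.607 for LP, 1.505, 1.555 and 1.667 for MP, and 1.923, 2.014 and 1.979 for HP. It was 1.714, 1.678 and 1.717 in NH, and 1.515, 1.506 and 1.493 in NC. The groups did not overlap in any of the 6 contrasts, DM being above NC, HP above NH and above DM, LP and MP below DM, and NH above NC. COX2 was singled out after its values were seen, and neither these ratios nor those to COX3 and ND6 were tested. How many of all the other listed mitochondrial genes separated against ATP6 was not counted, so these separations are not shown to be particular to any pair.

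COX3 encodes another subunit of the same oxidase and follows ATP6, with the shared base between them. The ATP6 to COX3 ratio was 1.08 in HP, 0.958 in DM, 1.01 in NH and 0.951 in NC on average, with HP above DM and NH above NC without overlap and DM overlapping NC. Against ND6, a complex I subunit and the one listed mitochondrial gene on the minus strand, ATP6 stood at 23.25 in DM, 19.39 in MP, 20.68 in NH and 26.57 in NC, and DM was below NC, MP below DM and NH below NC without overlap.

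The other listed mitochondrial genes all encode parts of the respiratory chain. In DM against NC their median log2 fold change was -0.11 under TMM, -0.52 under median-of-ratios, -1.49 under nuclear scaling and -1.04 unscaled, and 2, 10, 11 and 11 of the 11 were called lower, none higher. Of all 29 features, 2, 14, 19 and 16 were called lower there. COX2 was lowest under TMM (-0.39) and ND3, another complex I subunit, was highest (0.10). COX2 and ND2 were called lower under all 4 scalings.

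In HP against NH, 6, 11, 11 and 11 of these 11 genes were called lower, of 6, 12, 21 and 12 among all 29 features. COX1, COX2, COX3, CYTB, ND4 and ND4L were called lower under all 4 scalings, which ATP6 was not. In HP against DM, 3, 3, 9 and 10 of the 11 were called higher in the same order of scalings and none lower, of 3, 3, 14 and 16 features called higher. ND5 was highest under TMM (0.41) and ND3 lowest (-0.09), and ND2, ND4L and ND5, all of complex I, were called higher under all 4. In NH against NC, 6, 10, 10 and 2 of the 11 were called higher, of 6, 14, 16 and 2 features, with ND4 and ND5 under all 4. In LP against DM, 2, 3, 0 and 0 were called higher, of 6, 11, 5 and 4 features, and 0, 0, 3 and 0 lower, of 2, 1, 10 and 3 features. In MP against DM, 2, 5, 0 and 6 were called higher, of 6, 9, 4 and 11 features, and none lower.

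No other nuclear gene of oxidative phosphorylation is among the listed features, so Atp5f1b had no nuclear partner of its own pathway to be set against. The sodium pump, the main ATP consumer of the tubule, is represented by Atp1b1, its beta subunit. Atp1b1 averaged 62934 ± 2002 counts for DM, 63757 ± 5169 for LP, 57191 ± 5742 for MP and 51789 ± 3223 for HP, with 13885 ± 2082 in NH and 21009 ± 1286 in NC (SD, n = 3 each). It rose in DM against NC and in HP against NH under all 4 scalings (log2 fold changes of 2.51 and 2.40 under TMM, edgeR adjusted p = 5.01e-11 and 9.59e-11), and fell in HP against DM and in NH against NC under all 4 (-0.70 and -0.58 under TMM, edgeR adjusted p = 0.00148 and 0.00173).

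Within libraries, the ATP synthase gene was low relative to the pump gene in diabetic kidneys. Atp5f1b per Atp1b1 was 0.6401, 0.6833 and 0.6013 in DM, against 1.318, 1.357 and 1.413 in NC. It was 0.6373, 0.7591 and 0.8058 in HP, against 1.597, 1.717 and 1.647 in NH. Both contrasts were without overlap, by 2.12-fold and 2.25-fold lower means in the diabetic groups. Under nuclear scaling, Atp1b1 was at 1.14 in DM against NC and 1.02 in HP against NH. Atp5f1b was at 0.05 and -0.16 there, and the 15 nuclear genes other than Atp5f1b had medians of 0.04 and -0.02. The low ratio is thus not shown to be particular to Atp5f1b. Against Eef1a1, Atp5f1b was at 0.82 in DM and 0.81 in NC, which overlapped, and at 0.867 in HP and 1.065 in NH, with HP lower without overlap. The share of features that separated against Atp1b1 or Eef1a1 was not counted.

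In whole kidney RNA, fewer cells of a type and less RNA per cell cannot be told apart. Of 18 proximal tubule markers 8 were listed, none of them at 0, and of 22 markers of other kidney, vascular, blood and stromal cells 0 were listed, so those cell types were not analysed here. The summed proximal tubule markers ranged over 425704 to 450644 in DM, 675345 to 761563 in LP, 676756 to 861127 in MP, 461201 to 465430 in HP, 268971 to 331125 in NH and 326553 to 378304 in NC. DM was above NC and HP above NH in these sums, as for the Atp5f1b count, and their part in its values was not tested. Within the diabetic groups the sums were highest in LP and MP, where the Atp5f1b counts overlapped with DM.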

How the data were processed

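Kidney RNA was measured in 18 libraries made from 1 µg RNA with an NEBNext Ultra kit, per the labels' protocols. CASAVA 1.7, Bowtie 0.12.2 and the mouse build mm8 appear, with no role, in the submitters' processing notes, although the identifiers are rat. The counter, its strand setting and any poly(A) selection were not given in the sources used here. The deposited values are read as counts: the authors' table is titled as FPKM, but all 522 values are whole, and as FPKM they would exceed a library's reads 5.88 to 12.1 times. With counts between 10521 and 3382727, counting error is small beside the replicate spread, and depth is unknown.

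Group and replicate came from the labels. From the deposited counts, log2(ATP6/Atp5f1b) was compared by two-sided exact permutation tests. Single genes were tested with edgeR 4.0.16 in R 4.3.3 (quasi-likelihood, 1 fit over 18 libraries, or the 12 diabetic ones for the slope, no dispersion trend, no filter), adjusted over the 29 features. Alternatives were the other scalings, nuclear scaling without Atp5f1b, DESeq2 1.42.0, limma 3.58.1 on log2(scaled count + 1), filterByExpr, the compared groups alone, a replicate block, group medians and sums, and each library left out. Simulated counts with a few features changed in DM alone were used to test the edgeR step under TMM. That simulation did not cover a shift shared by all genes of a genome, and its outcome is not given here.

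Named beside the members were the 3 features nearest each in log2 ratio, the extreme mitochondrial genes of DM against NC and HP against DM, and the sodium pump, of which 1 gene is not reported here. Members and lists were chosen with earlier results of these data known. Replicate pairs differed by a chi-square per degree of freedom of 104 to 3660, more than counting error alone would give. Each library was counted as a sample, although this spread does not show that replicates were separate animals. Same-numbered libraries deviated together with r over 0.1 in all 3 pairs for MP and DM (r = 0.684, 0.465 and 0.733). No other contrast had all 3 pairs over 0.1, but HP and NH came close (r = 0.897, 0.527 and 0.0921). HP and DM had r = 0.438, 0.319 and 0.00706, and each remaining contrast held a negative r. The labels give no shared origin.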

Additional observations from a re-analysis of the deposited data

How the results depend on the processing

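The diabetic-to-healthy difference of the log2 ratio of ATP6 to Atp5f1b within feed (-1.60 to -1.39) and its slope over dose (0.12 to 0.22 per g per kg) passed an unadjusted exact permutation p of 0.05 with any 1 library left out. The high dose against water did not with group medians (0.39) or with a replicate block (0.50, the same value with an exact permutation p of 0.0625). The difference of the high-dose effects reversed, with -0.0191 to 0.41 when single libraries were left out. No other result of the ratio changed direction under the alternatives run.

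Of the single-gene log2 fold changes, these turned direction. Nuclear scaling with and without Atp5f1b turned Atp5f1b to -0.16 and -0.17 in HP against NH, -0.0942 and -0.101 in LP against DM, and 0.0738 and 0.0790 in NH against NC. ATP6 turned to 0.106 in LP against DM and 0.114 in MP against DM with median-of-ratios factors and with DESeq2, and to -0.148 for the difference of high-dose effects. In MP against DM it also turned to 0.0402 and 0.0250 with the nuclear scalings and 0.28 unscaled. Unscaled counts turned Atp5f1b to 0.0295 in MP against DM and to 0.22 for the difference of effects, which was 0.24 with the compared groups alone. With 1 library left out, ATP6 ran over -0.0754 to 0.0154 in LP against DM, -0.156 to 0.153 in MP against DM, -0.0457 to 0.0875 in NH against NC and -0.00831 to 0.236 for the difference of effects. The causes were not tested beyond the scaling itself. The replicate block changed no edgeR call of either gene: for MP against DM, where numbers deviated together, Atp5f1b was at -0.33. A low-count filter removed nothing. Against the sum of its genome's other genes instead of their geometric mean, ATP6 was at 0.09 in HP against DM and -0.07 in NH against NC, and Atp5f1b at -0.34 and -0.48 in LP and MP against DM. With 3 libraries a group no pairwise test of the ratio can fall below p = 0.1 in an exact permutation test, and the unknown depth leaves the choice between scalings to assumption.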
